A study of Mus musculus with 13 samples.

Results

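Sphingosine-1-phosphate is a lipid messenger, and 8 genes that make, break down, move or sense it were followed through 13 arrays of a bone-marrow-supporting stroma. They were chosen by symbol: the kinases Sphk1 and Sphk2, the lyase Sgpl1, the phosphatase Sgpp1, the transporter Spns2 and the receptors S1pr1, S1pr2 and S1pr3. Each was read from the probe set with the highest mean over all 13 arrays, so that mean chose the probe set and is used for nothing else. The 8 genes belong to 12205 that were tested.

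The stroma was UG26-1B6, a single clone from the urogenital ridge of a midgestation mouse embryo. Day 0 stroma (n = 3) was harvested by trypsinization and carried no added cells. A medium control (n = 2) was taken 24 h after fresh medium, again without added cells. In 3 further groups, confluent stroma was irradiated with 30 Gy and kept with LSK cells for 1 day (n = 3), 2 days (n = 3) or 3 days (n = 2). LSK cells are Lineage- Sca-1+ Kit+ blood progenitors. The sources used here do not give whether day 0 and medium stroma had been irradiated, nor whether LSK cells were removed before RNA isolation. The replicates are biological by their titles and technical by the design text, and every p-value reflects the spread among these arrays alone.

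In this pathway ceramide is cleaved to sphingosine, and a sphingosine kinase adds a phosphate to give sphingosine-1-phosphate. The phosphatase reverses that step inside the cell, the lyase cleaves the molecule for good, and the transporter exports it. Outside the cell it acts on G-protein-coupled receptors, and its gradient between blood and tissue guides the exit of blood cells from marrow and lymphoid organs.

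Promoter sequence is shown for the 3 genes to which most of the values below refer, Sphk1, Sgpl1 and S1pr3. It was taken from RefSeq on build GRCm38.p6, where 7 of the 8 genes matched and S1pr1 did not. All sequences run 5′ to 3′, and capitals mark matches to 6 motifs searched on both strands. These were TATAAA (the core of a TATA box), GGGCGG (a GC box), TGANTCA (the letters bound by AP-1), TGACGTCA (a cyclic AMP response element), CACGTG (an E-box) and GGAATG (the letters bound by TEAD factors), and none of them overlapped in the stretches shown. Sphk1 had 5 windows, all starting inside the outer boundary of the gene, so 30 bases around each of 3 matches are given, on the plus strand at chr11:116531057-116531086, chr11:116531776-116531805 and chr11:116532337-116532366. The first match ends 26 bases before an annotated start, and that window also held GGAATG from 210 bases before the start, which is not shown. Sgpl1 and S1pr3 are shown as the 250 bases before their start, at chr10:61147685-61147934 on the minus strand and chr13:51408368-51408617 on the plus strand.
Sphk1, TATA box letters: ctgaggcccaagTATAAAatgtcctgcagg
Sphk1, AP-1 letters: gagcgtgtcgcTGAGTCAccttctcggaag
Sphk1, E-box letters: catacaccggggCACGTGtgcattttcacc
Sgpl1: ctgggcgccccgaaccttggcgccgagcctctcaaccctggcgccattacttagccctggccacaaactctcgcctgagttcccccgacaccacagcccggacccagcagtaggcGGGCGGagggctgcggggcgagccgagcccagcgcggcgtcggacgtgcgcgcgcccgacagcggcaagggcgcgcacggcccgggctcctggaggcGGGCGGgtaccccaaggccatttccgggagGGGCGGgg
S1pr3: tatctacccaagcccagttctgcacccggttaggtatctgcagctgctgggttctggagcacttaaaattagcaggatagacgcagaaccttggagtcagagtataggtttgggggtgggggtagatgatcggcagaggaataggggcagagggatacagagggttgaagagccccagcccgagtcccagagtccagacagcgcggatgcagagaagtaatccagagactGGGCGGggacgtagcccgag
The Sgpl1 window held GGGCGG 3 times, at 135, 38 and 8 bases before the start, and had a GC content of 74.8%. The S1pr3 window held GGGCGG once, at 20 bases before the start. Over 32851 windows of the same length, 32.7% held the GC box, 12.4% the TATA box letters, 6.75% the AP-1 letters, 6.02% the E-box, 12.6% the TEAD letters and 1.55% the cyclic AMP response element. S1pr2 held TGACGTCA and both Sphk2 windows held GGGCGG, while the windows of Sgpp1 and Spns2 held none of the 6 motifs. A match describes letters and is neither a bound site nor a cause.

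Values are log2 expression, from 2.28 to 15.74 over the table, and cannot be compared between probe sets. The array LSK day 2 replicate 1 stood apart. It correlated at most at 0.785 with any other array, and the 3' probe sets of Gapdh exceeded the 5' probe set by 8.96 there, against 5.79 on LSK day 3 replicate 2 and at most 3.82 on the other 11. Of 20 blood cell markers 15 were measured, and their mean was 3.14 to 3.35 on the 5 arrays without LSK cells and 4.39 to 9.99 on the 8 with them, highest on LSK day 2 replicate 1. Ptprc, Ikzf1 and Elane lay at 2.28 on all 5 arrays without LSK cells, while Lyz2 lay at 4.01 to 4.82 and Laptm5 at 3.49 to 6.83 there. Gata2 lay at 6.72 to 7.95 on all 13 arrays. Of 12 stromal markers 10 were measured, with means of 10.29 to 11.81 without LSK cells and 7.49 to 11.01 with them, lowest on LSK day 2 replicate 1. Of 12 endothelial markers 4 were measured, and Pecam1, Cdh5 and Tek were not. Among the 4, Kdr lay at 5.89 to 6.66 at day 0, 10.40 and 10.42 in medium and 2.56 on LSK day 2 replicate 1, and Vwf at 2.28 to 2.34 on 11 arrays, 5.59 on LSK day 3 replicate 2 and 8.59 on LSK day 2 replicate 1. Over all 13 arrays Egfl7 lay at 4.46 to 5.46 and Esam at 2.42 to 4.65. The poly-A spike-in signal was 4.68 to 8.62 without LSK cells and 10.09 to 14.36 with them. LSK day 2 replicate 2 correlated at most at 0.936 with any other array. The share of probe sets at the lowest value of the table was 33.1%, 39.3% and 46.4% on LSK day 2 replicates 1, 2 and 3. The median of the tested genes was 5.69, 6.61 and 7.51 there. In the other groups the arrays lay at 43.6% to 46.7% and at 7.33 to 7.54. The part of blood cell RNA, of endothelial markers, of RNA quality and of spike-in signal in the results below was not tested. Nor was the part of these differences in median. In bulk samples such as these, fewer cells of a type and less RNA per cell cannot be told apart.

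Sphk1 rose in stroma kept with LSK cells for 1 day against day 0, and was the single call among the 8 genes over 7 comparisons. In that comparison 2.15% of all genes passed and 0.828% passed with a rise (limma, adjusted p under 0.05). In the other 6 comparisons limma called 0 of the 8. Medium against day 0 had 2 of the 8 genes at an unadjusted p under 0.05, where all genes gave 9.45%, and 0.328% of all genes were called. LSK day 1 against medium had 1, where all genes gave 20.9%, with 5.2% called. Against day 0, LSK day 1 had 2 (17.3% of all genes), LSK day 2 had 5 (26.3%, with 2.26% called) and LSK day 3 had 3 (13.8%, with 0.819% called). LSK day 2 against LSK day 1 had 1 and LSK day 3 against LSK day 1 had 0, where all genes gave 12.6% and 2.93%, and 0.00819% of genes were called in each. S1pr1 was the 1 in LSK day 1 against medium, and it was among those of LSK days 1, 2 and 3 against day 0. It passed the filter only through arrays where it was high, so its place in these counts is no support. Sphk1 was in every count against day 0, and its rise was known when the genes were chosen.

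**Figure D1:**
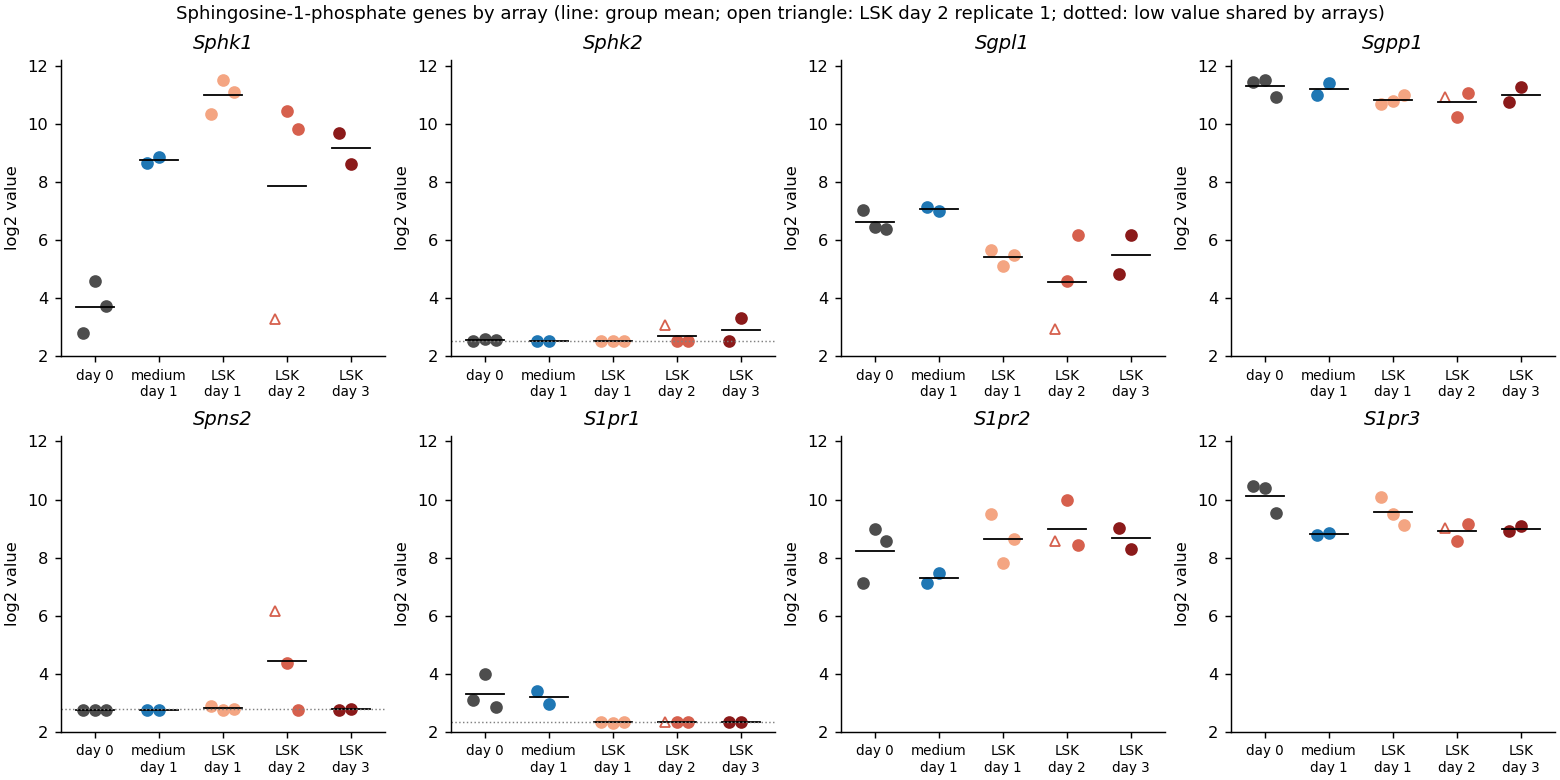
Log2 values of the 8 genes on 13 arrays in 5 groups (points: arrays; line: group mean; triangle: LSK day 2 replicate 1; dotted line: a low value that several arrays share). Sphk1 lies at 2.81 to 4.59 at day 0 and at 8.62 or above on every later array but LSK day 2 replicate 1, and Sgpl1 and S1pr1 lie lower on all 8 arrays with LSK cells than on the other 5.

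Sphk1 encodes a sphingosine kinase of the cytosol and lies at chr11:116530836-116536675 (NCBI gene 20698). Its log2 values were 2.81, 4.59 and 3.72 at day 0 and 8.65 and 8.84 in the medium control. With LSK cells they were 10.36, 11.51 and 11.09 on day 1, 3.27, 10.45 and 9.84 on day 2, and 9.70 and 8.62 on day 3. All arrays after day 0 apart from LSK day 2 replicate 1 lay above all day 0 arrays. The 3 arrays of LSK day 1 also lay above both medium arrays. The group means were 3.71 ± 0.89 (SD, n = 3) at day 0, 8.75 ± 0.14 (n = 2) in medium, and 10.99 ± 0.58 (n = 3), 7.85 ± 3.98 (n = 3) and 9.16 ± 0.77 (n = 2) on the 3 days of co-culture. By mean, LSK day 1 stood highest, then LSK day 3, medium, LSK day 2 and day 0. LSK day 3 and medium overlapped. LSK day 2 overlapped every other group, and its place below medium came from replicate 1 (3.27), the other arrays being at 10.45 and 9.84.

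Day 1 of co-culture differed from day 0 by 7.28 ± 1.56 (SE) on the log2 scale for Sphk1, with an adjusted p of 0.0495 in limma. No other gene of the 12205 had a larger difference in that comparison. This rise was known when the genes were chosen, so its p describes these arrays and is no independent evidence. The call was lost without any of the 3 day 0 arrays (adjusted p = 0.103 to 0.136), the 2 medium arrays (0.0942), the 3 LSK day 1 arrays (0.122 to 0.187) or the 2 LSK day 3 arrays (0.0633), and without LSK day 2 replicate 1 it was 0.000614.

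The medium control, which held no LSK cells, also lay above day 0 for Sphk1, by 5.04 ± 1.75 (adjusted p = 0.359). By size this was the 4th difference of 12205 genes. Blood cell markers averaged 3.14 and 3.23 on these medium arrays, within 0.22 of the day 0 arrays, and the endothelial marker Kdr was higher on both medium arrays than on the 3 of day 0. The other endothelial markers did not follow Kdr. Vwf lay at 2.28 and Esam at 2.44 to 2.48 on these day 0 and medium arrays. Egfl7 overlapped, at 4.80 to 5.28 at day 0 and 5.46 and 5.13 in medium. For Sphk1, LSK day 1 exceeded medium by 2.24 ± 1.75 (adjusted p = 0.570). Against day 0, LSK day 2 gave 4.15 ± 1.56 (adjusted p = 0.144) and LSK day 3 gave 5.45 ± 1.75 (adjusted p = 0.199). From day 1 to days 2 and 3 the differences were -3.13 ± 1.56 and -1.82 ± 1.75 (adjusted p = 0.413 and 1). The comparisons against day 0 share its 3 arrays.

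LSK day 2 replicate 1, at 3.27, set much of the Sphk1 spread. Without it Sphk1 passed in all 4 comparisons against day 0 and in LSK day 1 against medium. Medium then differed from day 0 by 5.04 ± 0.56 (adjusted p = 0.00821), LSK day 1 from medium by 2.24 ± 0.56 (0.0301), LSK day 2 from day 0 by 6.44 ± 0.56 (0.00312) and LSK day 3 from day 0 by 5.45 ± 0.56 (0.00324). All genes then gave 1.36%, 17.2%, 2.48% and 7.69% in these comparisons, and 10.6% in LSK day 1 against day 0. LSK day 2 against LSK day 1 was then -0.84 ± 0.56 (adjusted p = 0.633). A further Sphk1 probe set, 1420566_at, stayed between 2.28 and 2.30 on all 13 arrays and did not pass the filter.

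**Figure D2:**
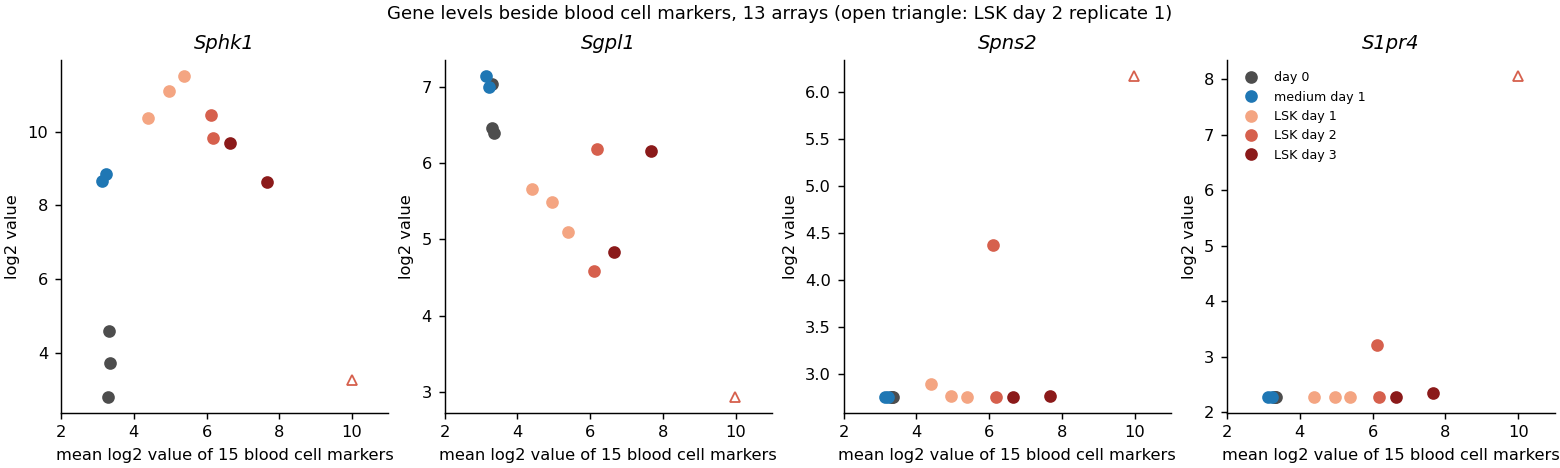
Log2 value of Sphk1, Sgpl1, Spns2 and S1pr4 (vertical) against the mean log2 value of 15 blood cell markers (horizontal) on 13 arrays, coloured by group. LSK day 2 replicate 1, the triangle at 9.99 on the horizontal axis, has Sphk1 at 3.27, Sgpl1 at 2.94, Spns2 at 6.16 and S1pr4 at 8.06, and the 2 medium arrays have Sphk1 at 8.65 and 8.84 with markers at 3.14 and 3.23.

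Sphk2, the sphingosine kinase found in the nucleus and mitochondria as well as the cytosol, lies at chr7:45709463-45718002 (gene 56632). It lay at 2.51 on 9 of 13 arrays, a low value shared by those arrays. The highest values were 3.07 on LSK day 2 replicate 1 and 3.32 on LSK day 3 replicate 2, the arrays with the largest Gapdh 3' to 5' difference. Its largest difference from day 0 was 0.37 ± 0.26, on LSK day 3 (adjusted p = 0.617). A second probe set, 1426230_at, lay at 2.28 on 12 arrays and at 2.93 on LSK day 3 replicate 1.

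Sgpl1 was lower on every array with LSK cells than on every array without them. It encodes the lyase of the endoplasmic reticulum that irreversibly cleaves sphingosine-1-phosphate, and lies at chr10:61098642-61147684 (gene 20397). The values were 7.04, 6.46 and 6.39 at day 0, 7.14 and 7.0 in medium, and 5.66, 5.09 and 5.49 on LSK day 1. LSK day 2 gave 2.94, 4.59 and 6.18, and LSK day 3 gave 4.83 and 6.16. The nearest arrays, 6.18 with LSK cells and 6.39 without, were 0.21 apart. Of all genes 7.69% had the 8 co-culture arrays below the other 5, as Sgpl1 did.

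No difference of Sgpl1 passed. LSK day 1 differed from medium by -1.66 ± 0.77 (5.41 ± 0.29 against 7.07 ± 0.10, adjusted p = 0.263, and 0.0597 without LSK day 2 replicate 1). Against day 0 the differences were -1.21 ± 0.69, -2.06 ± 0.69 and -1.13 ± 0.77 on days 1, 2 and 3 (adjusted p = 0.433, 0.116 and 0.596), and 0.44 ± 0.77 in medium. Without LSK day 2 replicate 3, day 2 gave -2.86 (adjusted p = 0.00597), and without LSK day 2 replicate 1 it gave -1.24 (0.200). The first of these fits left day 2 with replicates 1 and 2 alone. Their medians of the tested genes were 5.69 and 6.61, against 7.33 to 7.54 on the other arrays. Leaving out single arrays called up to 3497 of 12205 genes in LSK day 2 against day 0. Another probe set of the gene, 1415893_at, lay between 2.31 and 3.25.

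Sgpp1 encodes the endoplasmic reticulum phosphatase that turns sphingosine-1-phosphate back into sphingosine (chr12:75714248-75735729, gene 81535). Its chosen probe set, 1420822_s_at, varied little. It measured 11.46, 11.51 and 10.94 at day 0, 10.99 and 11.41 in medium, 10.69, 10.80 and 10.98 on LSK day 1, 10.93, 10.23 and 11.07 on LSK day 2, and 10.75 and 11.26 on LSK day 3. LSK day 1 was 0.37 ± 0.31 below medium and 0.47 ± 0.28 below day 0 (adjusted p = 0.606 and 0.452).

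Both other Sgpp1 probe sets differed by more. Probe set 1450015_x_at lay at 5.29 and 5.09 in medium, at 2.97, 2.94 and 2.95 on LSK day 1, and at 2.97 to 3.13 on days 2 and 3. All 3 LSK day 1 arrays lay at or just under a low value that 5 arrays share, so the fitted difference of -2.24 ± 0.40 runs to that low value (adjusted p = 0.0203 with this probe set in place of the chosen one). Probe set 1420821_at went from 8.90 and 9.62 in medium to 6.73, 5.49 and 7.53, a difference of -2.68 ± 1.03 that did not pass (adjusted p = 0.170). The suffixes s and x mark probe sets whose probes can also match other transcripts.

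Spns2, the exporter of sphingosine-1-phosphate best known from endothelium, lay within 0.01 of 2.77 on 10 of 13 arrays (chr11:72451638-72489976, gene 216892). All day 0 and medium arrays lay at 2.76. The exceptions were 6.16 on LSK day 2 replicate 1, 4.37 on LSK day 2 replicate 2 and 2.90 on LSK day 1 replicate 1. The mean of day 2 differed from day 0 by 1.67 ± 0.65 (adjusted p = 0.153). It was 0.80 ± 0.37 without LSK day 2 replicate 1 (adjusted p = 0.238) and 2.5 without LSK day 2 replicate 3 (0.00390). Against LSK day 1 the same day gave 1.62 ± 0.65 (adjusted p = 0.381), and 2.45 without LSK day 2 replicate 3 (0.00742). The fits without that replicate kept only the day 2 arrays with low medians of the tested genes (5.69 and 6.61). Leaving out single arrays called up to 1887 of 12205 genes in LSK day 2 against LSK day 1. Blood cell markers averaged 9.99, 6.11 and 6.18 on the 3 arrays of day 2, and Spns2 measured 6.16, 4.37 and 2.76. The endothelial marker Vwf lay at 8.59, 2.28 and 2.28 on the same arrays, while Kdr went the other way, at 2.56, 10.16 and 8.95. Egfl7 lay at 5.10, 4.46 and 5.10 there, and Esam at 3.19, 3.35 and 2.47.

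S1pr1 encodes the receptor by which lymphocytes sense the gradient of the lipid, coupled to Gi proteins, and lies at chr3:115710433-115715055 (gene 13609). It measured 3.09, 3.99 and 2.85 at day 0 and 3.41 and 2.97 in medium. On the 8 arrays with LSK cells it lay between 2.29 and 2.35, under the filter value of 2.38 and below all 5 other arrays. It passed the filter through those 5 arrays alone, so they had to lie above the others, and its fitted differences run to a low value that the 8 arrays share. They were -0.98 ± 0.27, -0.96 ± 0.27 and -0.97 ± 0.31 on days 1, 2 and 3 against day 0 (adjusted p = 0.101, 0.0873 and 0.191) and -0.86 ± 0.31 against medium (0.140). Without day 0 replicate 2, the difference from medium had an adjusted p of 0.0483.

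S1pr2, a receptor that couples to G12/13 among other G proteins, gave opposite directions in its 2 probe sets (chr9:20965952-20976793, gene 14739). The chosen probe set, 1447880_x_at, measured 7.13, 8.99 and 8.56 at day 0, 7.13 and 7.47 in medium, 9.51, 7.81 and 8.64 on LSK day 1, 8.59, 9.99 and 8.42 on LSK day 2, and 9.02 and 8.31 on LSK day 3. The other, 1428176_at, measured 5.80, 5.87 and 5.28, then 7.36 and 6.96, then 5.87, 4.27 and 5.15, then 4.32, 4.27 and 5.14, then 4.35 and 4.71 in the same order. Medium arrays were low in the first and higher than all others in the second.

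From medium to LSK day 1 the chosen S1pr2 probe set differed by 1.35 ± 0.69 (adjusted p = 0.314) and the other by -2.06 ± 0.46 (adjusted p = 0.0373 in its place). From day 0 to medium they gave -0.92 ± 0.69 (adjusted p = 0.847) and 1.51 ± 0.46 (0.274). So no direction is given for S1pr2.

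S1pr3, a receptor that couples to Gi, Gq and G12/13 proteins, lies at chr13:51408618-51422797 (gene 13610). Its values were 10.47, 10.39 and 9.55 at day 0 and 8.79 and 8.84 in medium. With LSK cells they were 10.09, 9.51 and 9.12 on day 1, 9.01, 8.56 and 9.15 on day 2, and 8.90 and 9.09 on day 3. Medium, LSK day 2 and LSK day 3 lay wholly below day 0, while LSK day 1 overlapped it and lay wholly above medium. Day 0 was highest at 10.14 ± 0.51, followed by LSK day 1 (9.57 ± 0.49), LSK day 3 (9.0 ± 0.13), LSK day 2 (8.91 ± 0.31) and medium (8.81 ± 0.04), and LSK day 2 overlapped both LSK day 3 and medium, while LSK day 3 lay wholly above medium.

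None of the S1pr3 differences passed in the chosen probe set. They were -1.32 ± 0.36 for medium (adjusted p = 0.210), -0.56 ± 0.32 for LSK day 1 (0.428), -1.23 ± 0.32 for LSK day 2 (0.0730) and -1.14 ± 0.36 for LSK day 3 (0.191), each against day 0. LSK day 1 exceeded medium by 0.76 ± 0.36 (adjusted p = 0.264). Without LSK day 2 replicate 3, day 2 gave -1.35 (adjusted p = 0.0239). That fit left day 2 with replicates 1 and 2 alone, whose medians of the tested genes were low (5.69 and 6.61). A further probe set, 1437173_at, measured 3.89, 4.37 and 3.53 at day 0 and lay at or below a low shared value on all 10 later arrays, 2.70 on LSK day 2 replicate 1 and 2.92 on the other 9. Its fitted differences from day 0 run to that low value and set no order among the later groups. In place of the chosen probe set they were -1.01 ± 0.21 on LSK day 1 and -1.08 ± 0.21 on LSK day 2 (adjusted p = 0.0457 and 0.0378), and -1.01 ± 0.23 in medium (0.154). The remaining S1pr3 probe set, 1460661_at, lay at 2.28 on 12 arrays and at 2.40 on LSK day 2 replicate 1, and did not pass the filter.

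**Figure D3:**
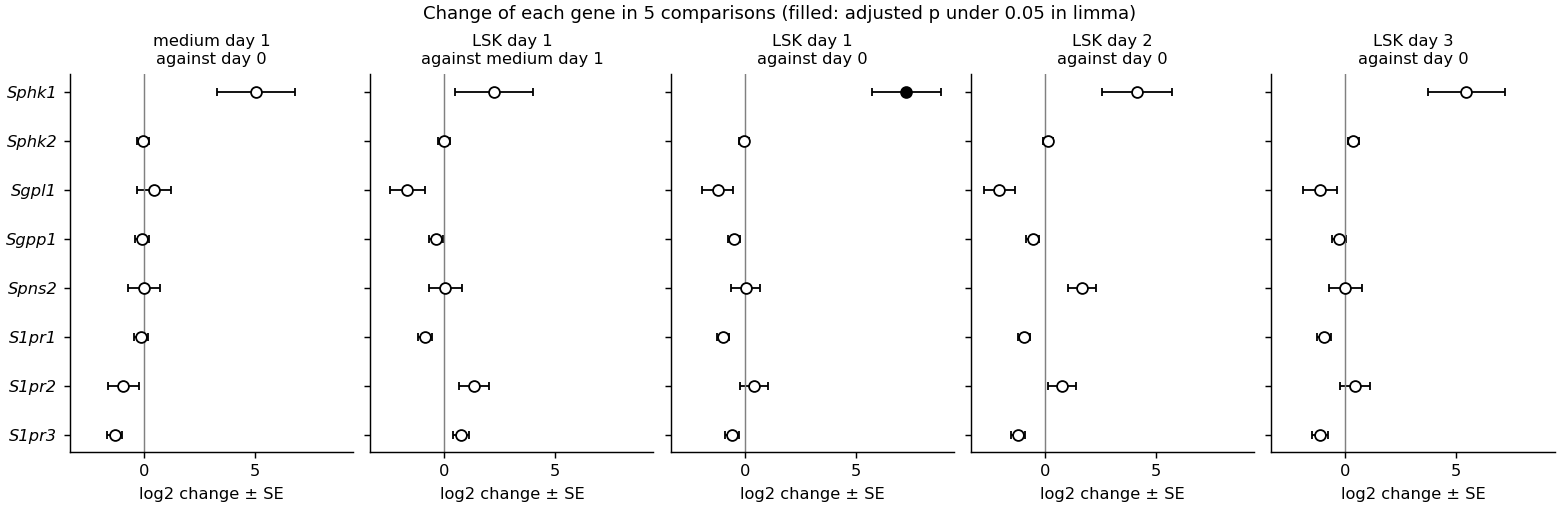
Difference of group means ± SE on the log2 scale (horizontal) for the 8 genes in 5 comparisons, filled where adjusted p was under 0.05 in limma. The single filled point is Sphk1 in LSK day 1 against day 0, at 7.28.

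By arrays that do not overlap between groups, LSK day 1 against medium had Sphk1 and S1pr3 higher, where 30.7% of all genes were, and Sgpl1, Sgpp1 and S1pr1 lower, where 31.8% were. S1pr2 is left out there, since its chosen probe set was higher and its other one differed by -2.06. S1pr1 passed the filter only through arrays where it was high, so its place in these counts is no support. In medium against day 0, Sphk1 was higher (20.6% of all genes) and S1pr3 lower (22.7%). Sphk1 was higher (17.7% of all genes) and Sgpl1 and S1pr1 lower (21.3%) on LSK day 1 against day 0. On LSK day 3 Sphk1 was higher (15% of all genes), and Sgpl1, S1pr1 and S1pr3 were lower than at day 0 (20.5%). LSK day 2 had the same 3 genes lower (16.2%). LSK day 3 against LSK day 1 had Sphk1 and S1pr3 lower (11.5%), and LSK day 2 against LSK day 1 had 0 of the 8 without overlap (12.4%).

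The wider pathway was read from a list of 55 genes, of which 45 passed the filter. In LSK day 1 against medium 2 of the 45 fell past the threshold, as 3.05% of all genes did, and 0 rose, and their median difference was -0.44, where all genes had 0.0021. In the other 6 comparisons limma called 0 of the 45, with 2 at an unadjusted p under 0.05 in medium against day 0 (9.45% of all genes), 10, 11 and 5 on LSK days 1, 2 and 3 against day 0 (17.3%, 26.3% and 13.8% of all genes), and 5 and 0 on days 2 and 3 against day 1 (12.6% and 2.93%). Without LSK day 2 replicate 1, limma called 8 lower in LSK day 1 against medium (Sptlc1, Ormdl1, Acer3, Sgms2, Ugcg, Gnai3, Rac1 and Rhoa) and 5, 1 and 3 lower on LSK days 1, 2 and 3 against day 0, with 0 higher in each. Of all genes 9.62%, 6.22%, 1.56% and 4.53% were then called lower in these 4 comparisons.

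Acer3, an alkaline ceramidase that frees sphingosine from ceramide, measured 4.85, 6.01 and 5.91 at day 0, 6.22 and 6.33 in medium and 3.97, 4.44 and 4.37 on LSK day 1. It fell by 2.02 ± 0.49 against medium (adjusted p = 0.0476). Among the other ceramidases, the lysosomal enzyme Asah1 differed by -0.99 ± 0.38 (adjusted p = 0.168), Asah2 by -1.32 ± 0.68 (0.315) and Acer2 by 0.27 ± 0.30 (0.757). The Acer3 call ended without either medium array (adjusted p = 0.265 and 0.284), any LSK day 1 array (0.121 to 0.133), day 0 replicates 2 and 3 (0.0647 and 0.0661) or either LSK day 3 array (0.0522). It also ended without the filter (0.0804), with the stricter filter (0.0530), quantile normalization (0.0935), centring on measured probe sets (0.0867), the replicate block (0.0609) and the mean of its probe sets (-0.79, 0.0860).

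Rhoa, the small GTPase that G12/13-coupled receptors activate, measured 11.44 and 11.64 in medium and 10.5, 10.47 and 10.47 on LSK day 1. It fell by 1.06 ± 0.20 (adjusted p = 0.0250). At day 0 it lay at 11.30, 10.84 and 10.71, between these groups. The call ended without either medium array (adjusted p = 0.160 and 0.217) or any LSK day 1 array (0.0745 to 0.0908). It also ended with the stricter filter (0.0672), quantile normalization (0.0609), centring on measured probe sets (0.298), the replicate block (0.0655) and the mean of its probe sets (0.428).

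Ugcg, the glucosylceramide synthase that draws ceramide into glycolipids, had the largest difference of the list in that comparison, -3.94 ± 1.11 (adjusted p = 0.0742). It lay at 10.10 and 10.38 in medium and at 6.56, 6.26 and 6.06 on LSK day 1. Gnai3, a Gi subunit, differed by -2.54 ± 0.71 (adjusted p = 0.0728). The ceramide kinase Cerk gave 1.56 ± 0.75 (0.277) and Cib1, a partner of Sphk1, 1.69 ± 0.69 (0.199). Ugcg, Gnai3, Cerk and Cib1 were picked after their values were seen.

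By role, 0 of 11 genes of ceramide synthesis, 1 of 4 ceramidases, 0 of 10 genes of sphingolipid turnover, 0 of 4 genes of breakdown, 0 of 3 carriers, 0 of 2 further receptors and 1 of 11 coupling genes passed in LSK day 1 against medium, with 0, 2, 2, 0, 0, 0 and 3 at an unadjusted p under 0.05 in limma, where 20.9% of all genes were. Their medians were -0.47, -1.15, -0.53, -0.63, -0.42, -0.04 and -0.22. The spike-in signal differed between these groups as well, at 4.68 and 4.89 in medium and 10.53 to 12.45 on LSK day 1.

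**Figure D4:**
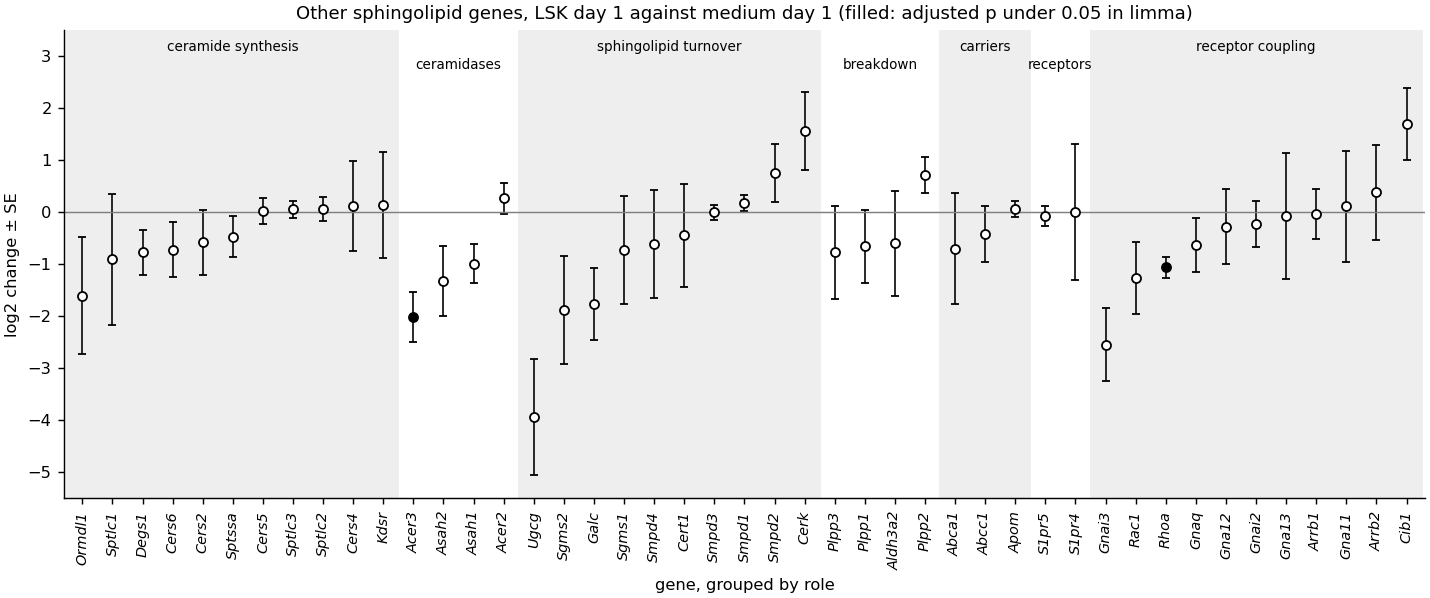
Difference of group means ± SE on the log2 scale (vertical) between LSK day 1 and medium for 45 sphingolipid genes, grouped by role and filled where adjusted p was under 0.05 in limma. Acer3 (-2.02) and Rhoa (-1.06) are filled, and 29 of the 45 lie below 0.

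The receptors outside the 8 genes were at or near the lowest value of the table. S1pr4, a receptor of blood cells, lay at 2.28 on 10 arrays and at 8.06 on LSK day 2 replicate 1, 3.21 on LSK day 2 replicate 2 and 2.36 on LSK day 3 replicate 2. S1pr5 lay at 2.28 to 2.43 on 12 arrays and at 2.78 on LSK day 2 replicate 1. The S1pr4 value of 8.06 stood on the array with the highest blood cell markers, as did the Spns2 value of 6.16.

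For the 2 genes whose group means spanned at least 2 on the log2 scale, the most similar profiles over the 13 arrays were listed by Pearson correlation. For Sphk1 they were Klf9 (0.943), Atpaf2 (0.934) and Slc10a6 (0.927), and over the 12 arrays without LSK day 2 replicate 1 they were Mt2 (0.964), Fabp4 (0.962) and Csrnp1 (0.957). For Sgpl1 they were Rbm12 (0.987), Ddx10 (0.979) and Klhl7 (0.976), and without that array C9orf72 (0.982), Eea1 (0.981) and Jade1 (0.981). None of the 3 genes was shared between the 2 sets of arrays for either gene. Klf9, for example, lay at 10.10 to 10.86 at day 0, 12.52 and 12.10 in medium, 12.71 to 13.36 on LSK day 1 and 9.88 on LSK day 2 replicate 1. The arrays share groups, blood cell content and spike-in level, so these are descriptions.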

How the data were processed

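RNA of 13 samples was amplified and hybridised to Affymetrix mouse arrays. The deposited values are log2 expression. The submitters' processing notes name RMA and GCRMA, with no version, and do not say which gave these values. Both summarise probes, and how they treat background sets how low values spread. No rescaling was added, and the number of arrays limits the precision. Arrays were grouped by their titles.

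Of 45101 probe sets, 64 were controls, 34958 had a single gene symbol, 932 several and 9211 none. A probe set passed the filter above 2.38, the pooled median, on at least 2 arrays, as 25216 did. Each gene took its passing probe set with the highest mean, giving 12205 genes. All 8 genes passed. A mean per group was fitted to all 13 arrays in limma 3.58.1 (R 4.3.3), with Benjamini-Hochberg adjustment over 12205 genes and a threshold of 0.05. Another probe set of a gene was tested in place of the chosen one. The test was checked on simulated data.

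The genes and lists were chosen with earlier results of these data known, the rise of Sphk1 among them. All 8 genes are named. Of the pathway list, up to 4 called genes per comparison were named by size of change, and likeness was listed as the 3 highest correlations for genes whose group means spanned at least 2. Any other name was picked after its values were seen. Alternatives changed the filter, scaling, probe set, fitted groups, array weights or replicate block, or left out each array. Leaving out LSK day 2 replicate 1 and LSK day 3 replicate 2 together was added after seeing the data. Gene and promoter coordinates are those of RefSeq on GRCm38.p6, and no build is named for the array's probes in the sources used here.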

Additional observations from a re-analysis of the deposited data

How the results depend on the processing

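The number of the 8 genes past the threshold depended on the processing. Medium against day 0 had 0, and 2 with array weights. LSK day 1 against medium had 0, with 3 when only the compared groups were fitted and 5 with array weights. S1pr1 was in both higher counts and S1pr2 in the second, and neither is support. Of all genes, 208 to 6423 were called in that comparison under the settings other than leaving out each array. LSK day 1 against day 0 had 1, with 0 without the filter, 2 when only the compared groups were fitted and 3 with array weights, S1pr1 included. LSK day 2 against day 0 had 0, with 1 for the mean of a gene's probe sets and 3 with array weights. LSK day 3 against day 0 and LSK day 2 against LSK day 1 had 0, and 1 each with array weights. Array weights called 3585 of all genes in medium against day 0 and 6423 in LSK day 1 against medium. In LSK day 1 against day 0 they called 3583. The main fit called 40, 635 and 263 there. For LSK day 2, array weights called 2542 against day 0 and 1272 against LSK day 1, and the main fit 276 and 1. So the higher counts with array weights were not confined to the 8 genes. Leaving out each array in turn gave 0 to 1, except 0 to 3 in LSK day 2 against day 0 (up to 3497 of all genes). Leaving out LSK day 2 replicate 1 and LSK day 3 replicate 2 together, an alternative chosen after seeing the data, gave 1 in medium, LSK day 2 and LSK day 3 against day 0 and 2 in LSK day 1 against medium. LSK day 3 against LSK day 1 had 0 under every alternative run.

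The Sphk1 difference between LSK day 1 and day 0 ranged from 6.83 to 7.72 when each array was left out, and was called in 3 of those 13 fits. Without the filter its adjusted p was 0.0945. S1pr2 was the single gene to change sign with an adjusted p under 0.05 in limma in the main or the other fit. It did so at -2.06 in LSK day 1 against medium with its other probe set, whose sign was opposite in every comparison. Other genes changed sign with neither fit called, such as Sgpp1 in medium against day 0 (-0.10, and 0.97 with 1450015_x_at). Among 1225 single-gene alternatives that did not put in another probe set, 52 had another sign than reported, 4 of them where the reported change exceeded 0.5. The cause of these shifts was not tested.

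Whether replicate numbers pair the samples could not be decided. Over 23 same-numbered pairs, deviations from the group means correlated at -0.371 to 0.261, with 8 over 0.1. Over 44 differently numbered pairs they correlated at -0.379 to 0.381, with 12 over 0.1. In medium and LSK day 3, with 2 arrays each, the deviations are mirror images. Their correlations with any other array therefore come in equal and opposite values. With the replicate block, LSK day 1 against day 0 had 0 of the 8 genes past the threshold (Sphk1 adjusted p = 0.0740), and the other 6 comparisons kept their count of 0.

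Over all genes, LSK day 1 against day 0 called 263, with 103 to 3583 under the other settings and 9 to 1290 leaving out each array. With arrays centred on the measured probe sets, all genes had a median of 0.15, 0.49 and 0.21 on LSK days 1, 2 and 3 against day 0, and of 0.44 between days 1 and 2. Quantile normalization moved the split in LSK day 1 against medium from 263 higher and 372 lower to 374 and 318, in LSK day 1 against day 0 from 101 and 162 to 153 and 142, and in LSK day 2 against day 0 from 78 and 198 to 105 and 119. Groups of 2 or 3 arrays limit every value, and low values shared by several arrays limit Sphk2, Spns2, S1pr1, Sgpp1 probe set 1450015_x_at and S1pr3 probe set 1437173_at.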
